A study of Mus musculus with 93 samples.

Results

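The 55 genes described here are nuclear genes of oxidative phosphorylation: every protein-coding row whose symbol begins with Nduf, Sdh, Uqcr, Cox or Atp5 followed by the letters and digits used for subunits of respiratory complexes I to IV and of ATP synthase (complex V). They were found among 30235 rows of the gene table, of which 19708 were protein-coding. By symbol, 28 belonged to complex I, 4 to complex II, 4 to complex III, 6 to complex IV and 13 to complex V. Among them 51 encode structural subunits; the other 4 are Ndufa4l2, a paralog of Ndufa4, Cox7a2l, which joins complexes III and IV into supercomplexes, and Atp5s and Atp5sl, which are not core subunits of ATP synthase. Expression had been measured by sequencing of polyadenylated RNA in 93 libraries of female mice labelled as untreated. Posterior eyecups, meaning the whole eye without lens and retina, came from homozygous Efemp1ki/ki mice (ki) at 3 (n = 8), 9 (n = 8) and 17 months (n = 7) and from wild-type mice (Wt) at 3 (n = 6), 9 (n = 8) and 17 months (n = 8). Neural retinas came from ki and Wt mice at the same 3 ages, with 8 libraries in each group. Efemp1 encodes a secreted matrix protein, and the title of the series names the knock-in as a mouse version of a honeycomb retinal dystrophy (Doyne). The change is carried in the germline, so every cell of the ki mice holds it. Nothing in the labels says whether libraries of a group came from different animals, so the spread behind each p-value is that among these libraries.

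In the mitochondrial inner membrane, complex I takes electrons from NADH and complex II from succinate, complex III passes them to cytochrome c, and complex IV hands them to oxygen. Complexes I, III and IV pump protons, and ATP synthase uses the returning protons to make ATP. A few subunits of complexes I, III, IV and V are made inside the mitochondrion from its own genome, and the nuclear genes encode the rest. In the eye, photoreceptors hold dense mitochondria in their inner segments but also run a high rate of glycolysis, while the pigment epithelium and the extraocular muscles rely strongly on mitochondria.

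Promoters are shown first because genes of this family are known to share binding sites for a few factors. A window of 250 bases before to 50 bases after the start was matched in RefSeq (GRCm38.p6) for 44 members, 3 of them by the newer name that RefSeq uses. Exact letters were searched on both strands. The site of NRF1 (GCGCNTGCG) was in 14 member promoters, or 31.8%, against 9.0% of all 17492 promoters. It stood in Ndufa5, Ndufa8, Ndufa11, Ndufa12, Ndufb4, Ndufb10, Ndufs5, Sdha, Sdhd, Uqcrc1, Atp5g2, Atp5h, Atp5o and Atp5sl. The YY1 site (AAGATGGCG) was in 6 member promoters, or 13.6%, against 1.9% of all, and stood in Ndufa9, Ndufs4, Ndufs7, Ndufc1, Atp5j2 and Atp5sl. The GABP site (CCGGAAG) was in 6 (13.6%, against 11.9% of all), among them Sdhb and Sdhd. A TATA box (TATAAA) was in 2 (4.5%, against 13.3% of all) and the E-box of myogenic factors (CAGCTG) in 5 (11.4%, against 15.1% of all). Matches of 2 different motifs overlapped in 1 member promoter. The promoter windows of Uqcrc1 (chr9:108936398-108936697, plus strand), Sdhb (chr4:140961021-140961320, plus strand), Ndufa9 (chr6:126849095-126849394, minus strand) and Cox7a2l (chr17:83514284-83514583, minus strand) are printed 5′ to 3′, with matches in capitals: the 2 stretches with NRF1 matches in Uqcrc1 (the second matches on both strands), the GABP match in Sdhb and the YY1 match in Ndufa9. Cox7a2l held none of the 5 letter strings and is the member with the smallest p at 17 against 3 months in retinas of each genotype. Other members, among them Atp5d and Cox7b, held none of them either. Whether the sites bear on the levels measured here was not tested.
Uqcrc1: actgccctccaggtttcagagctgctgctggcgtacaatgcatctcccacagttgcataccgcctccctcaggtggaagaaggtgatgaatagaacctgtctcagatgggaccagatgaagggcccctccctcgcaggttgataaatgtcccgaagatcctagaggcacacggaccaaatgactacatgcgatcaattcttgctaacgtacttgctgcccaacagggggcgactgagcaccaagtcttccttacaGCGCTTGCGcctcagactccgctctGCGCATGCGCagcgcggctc
Sdhb: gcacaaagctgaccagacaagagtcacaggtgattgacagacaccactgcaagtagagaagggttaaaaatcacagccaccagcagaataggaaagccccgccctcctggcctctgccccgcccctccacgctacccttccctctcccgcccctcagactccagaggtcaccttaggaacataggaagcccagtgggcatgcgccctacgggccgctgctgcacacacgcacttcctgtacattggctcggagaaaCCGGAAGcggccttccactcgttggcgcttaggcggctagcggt
Ndufa9: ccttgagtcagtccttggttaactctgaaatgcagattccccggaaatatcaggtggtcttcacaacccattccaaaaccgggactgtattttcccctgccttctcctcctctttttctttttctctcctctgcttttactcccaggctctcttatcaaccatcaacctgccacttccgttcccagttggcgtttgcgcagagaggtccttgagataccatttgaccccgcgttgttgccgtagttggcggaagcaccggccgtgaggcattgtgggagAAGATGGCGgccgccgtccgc
Cox7a2l: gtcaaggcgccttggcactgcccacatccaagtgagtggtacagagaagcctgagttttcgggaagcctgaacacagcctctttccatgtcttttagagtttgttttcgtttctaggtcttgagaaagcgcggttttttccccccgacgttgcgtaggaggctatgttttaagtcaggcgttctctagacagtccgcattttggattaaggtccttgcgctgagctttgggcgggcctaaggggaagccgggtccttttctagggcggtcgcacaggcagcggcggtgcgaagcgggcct

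Depth ranged over 14236127 to 35297627 estimated reads in eyecups (median 19982911) and over 9218127 to 37475492 in retinas (median 16813522). Eyecup libraries varied far more than retinas, edgeR's common biological coefficient of variation being 0.309 in eyecups and 0.0963 in retinas. The summed level of 24 skeletal muscle markers spanned 4530 to 68400 CPM (TMM-scaled reads per 1000000) over the eyecups and 43.7 to 56.9 CPM over the retinas, where Myh2 was at 0 in 43 libraries and Tnni2 in 28. Rod markers, which should be retinal, summed to 711 to 34300 CPM in eyecups and 59200 to 80700 CPM in retinas. Muscle and rod marker RNA was thus present in every eyecup, in amounts that differed between libraries. The summed ocular surface epithelium markers were at 20600 to 58000 CPM in eyecups and at 19.6 to 279 CPM in retinas. In bulk tissue, fewer cells of a type and less RNA per cell cannot be told apart. In retinas 2 libraries stood apart from the others of their tissue (ki 3 months replicate 5 and Wt 17 months replicate 2).

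Levels can be compared between genes on the deposited length-scaled value, which adds up to 1000000 over the protein-coding genes of a library. All 55 members together took a mean of 14100 ± 2220 of it in ki eyecups and 13100 ± 1830 in Wt eyecups at 3 months, 14500 ± 3330 in ki and 14100 ± 2340 in Wt at 9 months, and 16800 ± 4740 in ki and 15900 ± 4180 in Wt at 17 months (SD). Retinas held 11000 ± 342 in ki and 11400 ± 383 in Wt at 3 months, 11100 ± 301 in ki and 11000 ± 419 in Wt at 9 months, and 10500 ± 275 in ki and 10900 ± 492 in Wt at 17 months. Complex V made up the largest share of these sums and complexes II and III the smallest in every group. In 17-month eyecups, for example, complex V averaged 6220 ± 1630 in ki and 5900 ± 1500 in Wt, and complex II 1080 ± 352 in ki and 1070 ± 323 in Wt.

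**Figure D1:**
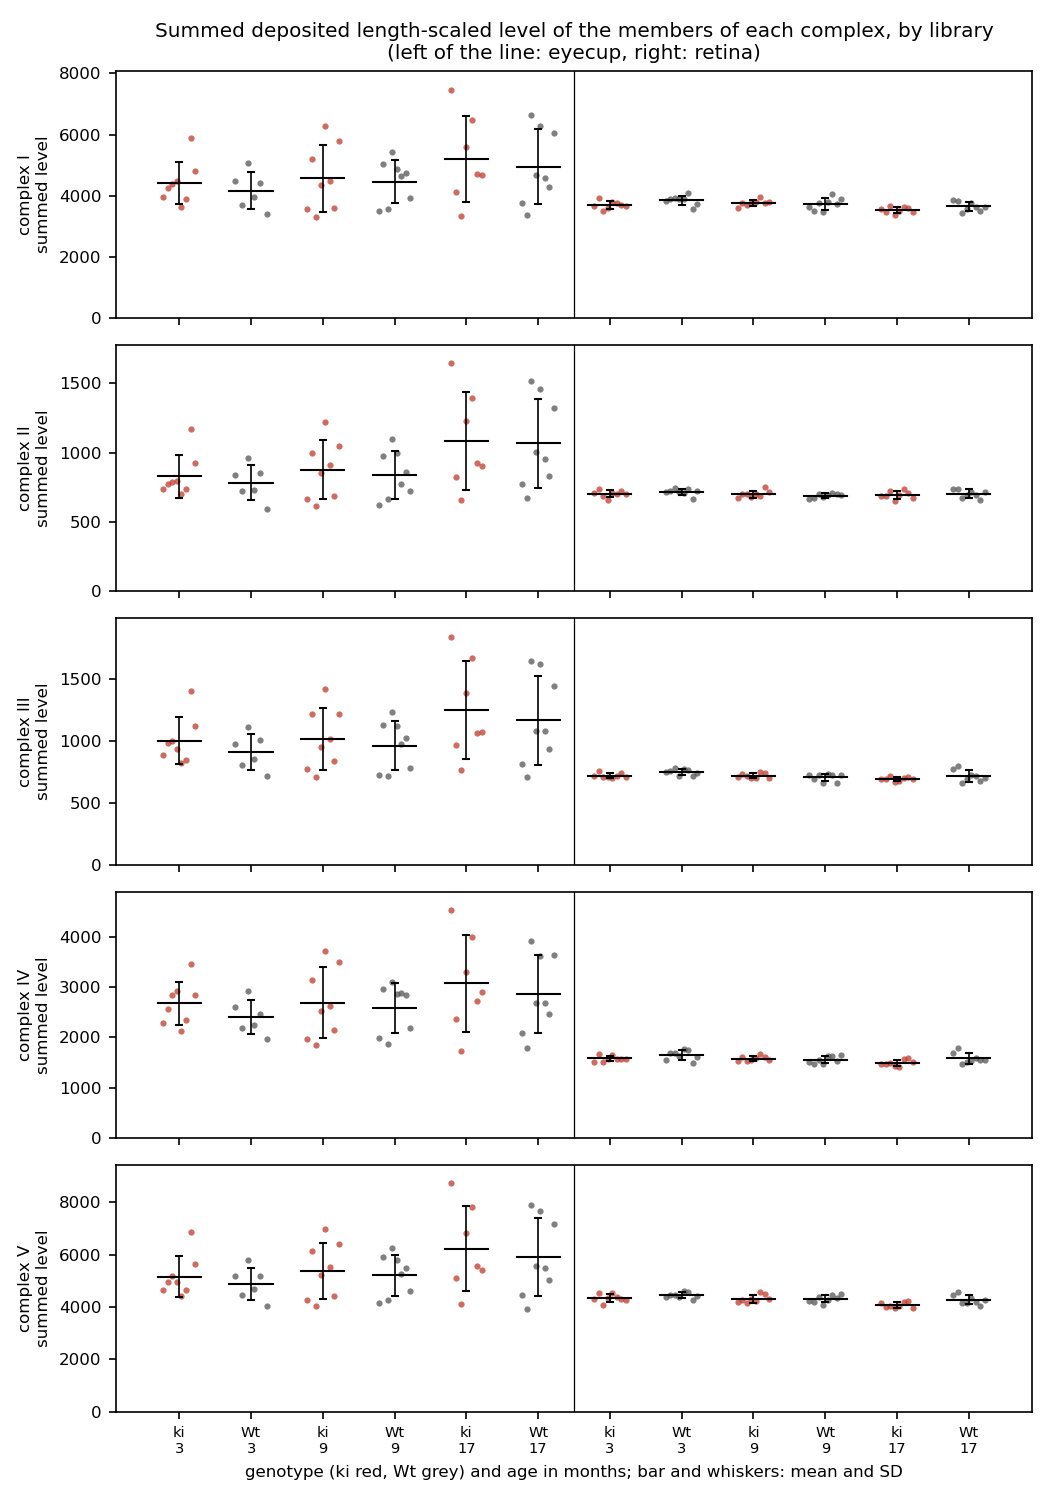
Summed deposited length-scaled level of the members of complexes I to V (1 panel each), by library, for ki (red) and Wt (grey) at 3, 9 and 17 months, with eyecups left of the line and retinas right of it. Bars and whiskers are mean and SD; the eyecup groups spread widely, with the complex V sum between 3930 and 8710, while retinas stay between 3960 and 4620.

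Within each complex the subunits lay far apart on the length-scaled value. In complex V the catalytic beta subunit Atp5b was highest, at a mean of 1380 over eyecups and 1330 over retinas, followed by the alpha subunit Atp5a1 (778 in eyecups, 615 in retinas) and the stalk subunit Atp5h (622 in eyecups, 515 in retinas). Its lowest genes were Atp5s (17.9 in eyecups, 26.1 in retinas) and Atp5g1 (9.2 in eyecups, 12.1 in retinas), 1 of the genes for the membrane ring subunit. In complex IV, Cox4i1 led with 1030 in eyecups and 755 in retinas, and was followed by Cox6a2 in eyecups (592, against 0.564 in retinas) and by Cox7a2l in retinas (306, against 346 in eyecups). Among complex I genes, the accessory subunits Ndufb8 (434 in eyecups, 400 in retinas) and Ndufb9 (458 in eyecups, 285 in retinas) were highest. Ndufs5 (1.42 in eyecups, 4.76 in retinas), Ndufa4l2 (12.4 in eyecups, 4.5 in retinas), Ndufa12 (10.5 in eyecups, 18.5 in retinas) and Ndufb2 (8.11 in eyecups, 21.3 in retinas) were the 4 lowest in both tissues. Complex III held the core proteins Uqcrc1 (359 in eyecups, 256 in retinas) and Uqcrc2 (262 in eyecups, 198 in retinas), the iron-sulfur protein Uqcrfs1 (359 in eyecups, 209 in retinas) and the small subunit Uqcrq (69.1 in eyecups, 52.3 in retinas). In complex II the iron-sulfur protein Sdhb was highest in eyecups (268, against 102 in retinas) and the flavoprotein Sdha in retinas (311, against 244 in eyecups), while the membrane anchors were at 209 in eyecups and 179 in retinas for Sdhc and at 192 in eyecups and 110 in retinas for Sdhd. A low value need not be a low level: of all 50-base windows of Ndufb4 transcripts, 37.0% occur elsewhere in the transcriptome, and likewise 35.8% of those of Ndufs3, 31.1% of Ndufs5, 25.9% of Cox5b, 23.8% of Atp5h, 23.4% of Ndufb9, 17.7% of Cox7a2l, 17.2% of Ndufa12, 14.8% of Atp5g2 and 10.6% of Atp5g1. Reads of these genes can be split with other genes that share the sequence, and their values are uncertain wherever they are named.

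**Figure D2:**
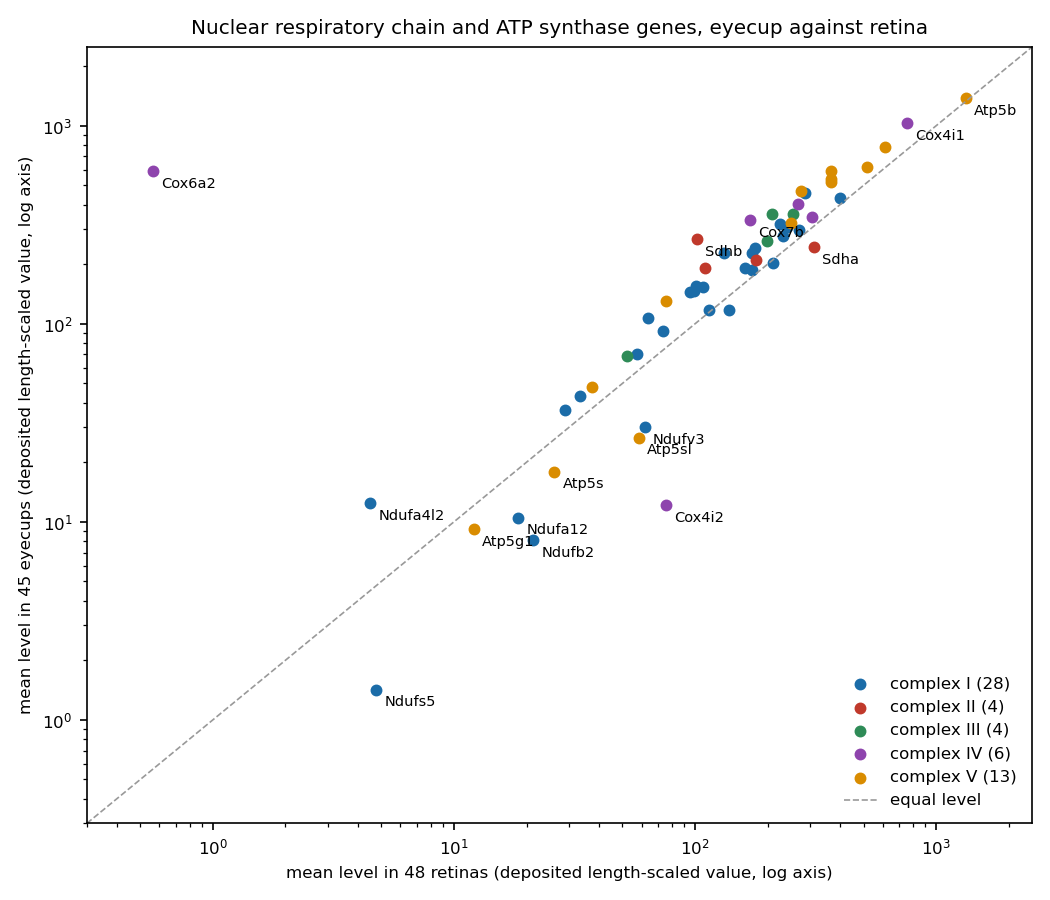
Mean deposited length-scaled level of each of the 55 members in 45 eyecups (y axis) against 48 retinas (x axis), both log axes, coloured by complex, with a dashed line of equal level. Cox6a2, at 592 in eyecups and 0.564 in retinas, lies farthest above the line, and Cox4i2, at 12.1 and 75.8, far below it.

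Eyecups were compared with retinas as the mean of 6 groups each, in 1 edgeR quasi-likelihood fit of all libraries with Benjamini-Hochberg adjustment over 19210 genes. Of 55 members, 49 were higher in eyecups, 5 were lower and 1 was not called; Cox6a2 entered the test only through its eyecup level, and without it 48 of 54 were higher. Almost every gene differed between these tissues: 47.7% of all genes were called higher and 47% lower. The members' median log2 fold change was 1.11, against 0.01 over all genes. Every complex leaned the same way, with 24 of 28 genes higher and 3 lower in complex I (median 1.05), 4 of 4 higher in complex II (1.27), 4 of 4 in complex III (1.20), 5 higher and 1 lower of 6 in complex IV (1.26, or 1.18 without Cox6a2) and 12 higher and 1 lower of 13 in complex V (1.10). The size depended on the scaling. With library totals only, the median was 0.76 for the members and -0.31 over all genes. On the deposited length-scaled values it was 0.34 and -0.46, with 40 members higher and 10 lower.

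Cox6a2 (chromosome 7, 128205435 to 128206387, GRCm38), the complex IV subunit 6a form of heart and skeletal muscle, was close to absent from retinas. It ranged from 28.3 through a median of 145 to 500 CPM over the 45 eyecups, and from 0 through 0.0733 to 0.395 CPM over the 48 retinas. No eyecup overlapped any retina. It passed the filter on low counts only through the eyecups, so no fold change or p is given. Sdhb, the iron-sulfur subunit of succinate dehydrogenase, followed among the structural subunits: 63.7, 147 and 412 CPM (lowest, median, highest) in eyecups against 32.0, 37.4 and 50.2 CPM in retinas. It was 2.15 ± 0.09 higher on the log2 scale (SE, adjusted p = 1.21e-37), and the 2 ranges did not overlap. Ndufa4l2, at 2.14, 5.29 and 19.9 CPM in eyecups and 0.63, 1.24 and 1.96 CPM in retinas, differed by as much (2.14 ± 0.10).

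Further members without overlap were Sdhd (59.7 to 226 CPM in eyecups, 34.0 to 45.9 CPM in retinas), Ndufa8 (45.5 to 179 CPM in eyecups, 22.5 to 42.5 CPM in retinas) and Cox7b (63.8 to 289 CPM in eyecups, 30.9 to 54.9 CPM in retinas). In all, the libraries of the 2 tissues did not overlap for 14 members, 13 of them higher in eyecups. Of all 19210 genes, 23.2% were without overlap and higher in eyecups, a share close to that of the members, and 13.8% were without overlap and lower. Cox7a2l had a smaller log2 fold change but a tight one, at 0.89 ± 0.03 (adjusted p = 8.23e-44), with 121 to 229 CPM in eyecups and 85.6 to 123 CPM in retinas. Sdha, the partner of Sdhb in the same complex, was only 0.39 ± 0.06 higher. The complex V genes Atp5g1 (0.27 ± 0.05) and Atp5s (0.16 ± 0.05) stood near equality in this fit. On the deposited length-scaled values Sdha, Atp5g1 and Atp5s were instead lower in eyecups. Their means there were 244, 9.2 and 17.9 in eyecups and 311, 12.1 and 26.1 in retinas. Ndufa12 was the member not called by edgeR (-0.09 ± 0.06, adjusted p = 0.148).

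The 5 members lower in eyecups were Cox4i2, Ndufs5, Ndufb2, Atp5sl and Ndufv3. Cox4i2 (chromosome 2, 152754173 to 152765037), the alternative form of complex IV subunit 4 that is known from lung and from low oxygen, was at 1.5 to 8.06 CPM in eyecups and 11.5 to 23.4 CPM in retinas. It was the member whose retinas all lay above all eyecups (log2 fold change -1.98 ± 0.09, adjusted p = 8.6e-37). The others were smaller: Ndufs5 -1.04 ± 0.14, Ndufb2 -0.70 ± 0.04, Atp5sl -0.51 ± 0.04 and Ndufv3 -0.34 ± 0.03. Ndufb2 and Ndufv3 are accessory subunits of complex I, while Atp5sl is counted in complex V by its symbol only. Ndufs5 lay near the floor, at 0 to 1.01 CPM in eyecups and 0.207 to 1.58 CPM in retinas.

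Genes that work beside these complexes were counted in the same comparison. All 18 measured TCA cycle genes were higher in eyecups (median 1.03), led by Suclg2 (3.09 ± 0.06), Idh2 (2.61 ± 0.09), Pdha1 (2.14 ± 0.08) and Cs (1.44 ± 0.06). All 9 measured mitochondrially encoded genes were higher too (median 1.24), with mt-Co1 at 1.32 ± 0.10. Assembly factors were split, with 24 higher and 11 lower of 40 (median 0.22), as were regulators of mitochondrial biogenesis, with 9 higher and 9 lower of 18, among them the receptor gene Esrra (1.59 ± 0.05) and the coactivator gene Ppargc1b (-1.96 ± 0.09). Glycolysis ran the other way: 14 of 18 genes were lower in eyecups and 3 higher (median -0.96), with Pgam1 at -1.68 ± 0.07, Eno1 at -1.65 ± 0.07 and Pkm at -1.15 ± 0.05, while the muscle enolase gene Eno3 was 5.25 ± 0.15 higher. Beside all of these, 20 of 20 rod markers were lower in eyecups (median -2.80). Several skeletal muscle markers, such as Myh2 (at 0 in 43 retina libraries), passed the filter on low counts only through the eyecups. No count or median fold change is therefore given for that list. The part of rod and muscle RNA in the members' difference was not tested between tissues.

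**Figure D3:**
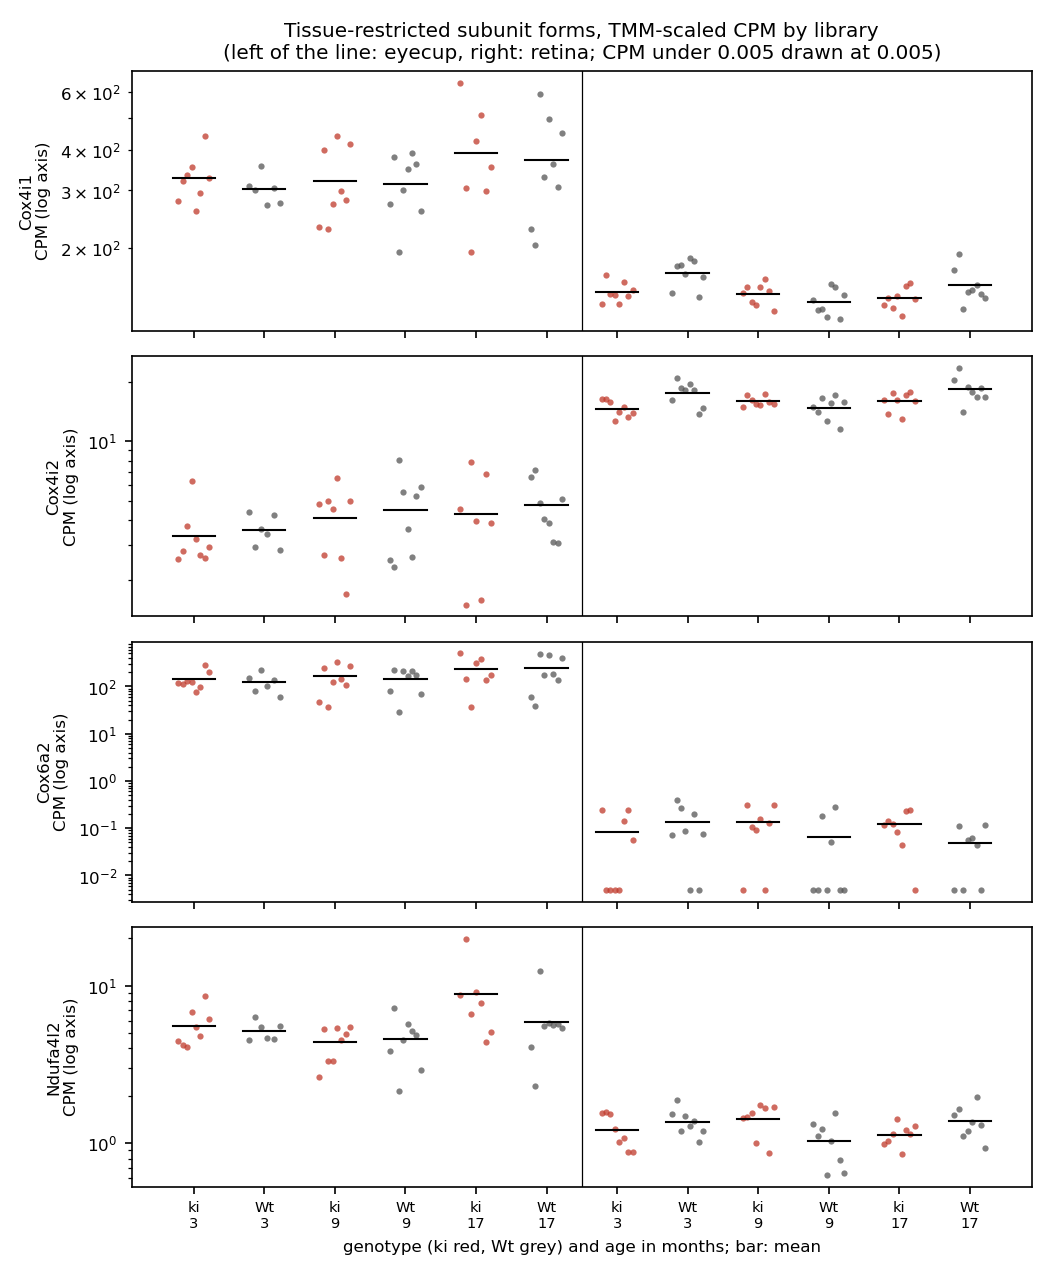
TMM-scaled CPM (log axes) of Cox4i1, Cox4i2, Cox6a2 and Ndufa4l2 in every library, for ki (red) and Wt (grey) at 3, 9 and 17 months, eyecups left of the line and retinas right of it, with a bar at each mean. Cox6a2 and Cox4i2 separate the tissues in opposite directions, and the ki and Wt points of an age overlap in all panels.

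The 2 forms of complex IV subunit 4 could be set against each other. Cox4i1 (chromosome 8, 120668222 to 120674207), the ubiquitous form, ran from 194 to 639 CPM over the eyecup groups and from 121 to 192 CPM over the retina groups. The log2 ratio of Cox4i2 to Cox4i1 reads, with 0.5 reads added to each, averaged between -6.64 and -6.22 in the eyecup groups and between -3.32 and -3.07 in the retina groups. In eyecups the ki minus Wt difference of this ratio was -0.24 at 3 months, -0.13 at 9 months and -0.37 at 17 months, and the 17 minus 3 months difference was 0.02 in ki and 0.15 in Wt. None of these 5 passed a 2-sided exact permutation test (p = 0.28 to 0.967, adjusted p = 0.949 to 0.967 over the 5). The eyecup groups spread by 0.24 to 1.26 (SD). The partner forms of Cox6a2 and Ndufa4l2 were not analysed here.

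Within the eyecups, most members rose with the skeletal muscle marker score of the library. Libraries of the same group were compared through this score, the mean log2 CPM of 24 muscle markers, none of them a member, taken for this test as the deviation from the mean of the library's group. The edgeR fit called 51 of 55 members higher with a higher score and 1 lower, and 3 were not called; over all 18003 genes, 19.6% were called higher and 27.1% lower. The median slope of the members was 0.43 (log2 change per log2 unit of the score), against -0.02 over all genes. Cox6a2 rose about as much as the markers, with a slope of 1.09 ± 0.02 (SE, adjusted p = 6.61e-34), and other steep slopes were those of Sdhb (0.64 ± 0.02, adjusted p = 8.45e-28), Uqcrfs1 (0.62 ± 0.02), Ndufb9 (0.53 ± 0.02), and Atp5o (0.52 ± 0.02), a stalk subunit of ATP synthase. Cox4i2 fell with the score (-0.21 ± 0.08, adjusted p = 0.0406). Cox7a2l (0.07), Ndufv3 (-0.03) and Ndufs5 (-0.07) were the 3 members not called, and Ndufs5 was at 1.01 CPM or less in every eyecup.

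All 18 TCA cycle genes (median slope 0.47), all 9 mitochondrially encoded genes (0.51) and 30 of 40 assembly factors (0.12) rose with the score, and 20 of 20 rod markers fell (-0.59), as did 8 of 9 cone markers. In the glycolysis list 8 genes rose and 7 fell. Brown and white fat markers rose in 6 of 7 cases (1.32), and since fat markers moved with muscle markers, the members' slopes on the 2 were not separated. Across the 45 eyecups the median Pearson correlation between 2 members was 0.91, and 89.8% of pairs were positive, a description of libraries that share their tissue content. It was taken on log2 CPM as deviations from the mean of the library's group. With the muscle score taken out the median was 0.42. Before the score was taken out, the complexes differed, with medians of 0.96 in complex II, 0.94 in III, 0.91 in I, 0.81 in V and 0.49 in IV. Members that did not run with the rest were Cox4i2 (median correlation with the others -0.33), Ndufv3 (-0.13) and Ndufs5 (-0.09). The reads of Ndufs5 were too few to show whether it moved with them. In the 48 retinas the median was 0.44, and 0.29 with the rod marker score taken out.

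**Figure D4:**
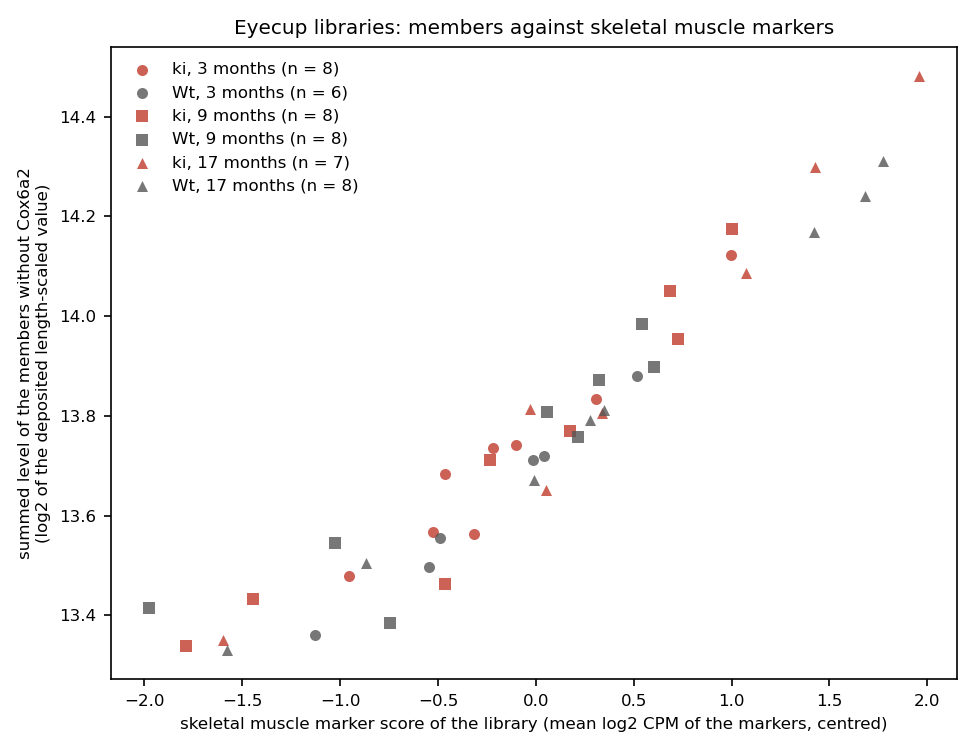
Summed level of the members without Cox6a2 (log2 of the deposited length-scaled value) in each of 45 eyecups against the skeletal muscle marker score of the library (mean log2 CPM of 24 markers, minus its mean over all eyecups), by genotype (ki red, Wt grey) and age (symbols). The sum climbs with the score in every group, and the highest scores, up to 1.95 in ki and 1.78 in Wt, belong to 17-month eyecups.

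Age in the eyecups was tested within each genotype. At 17 against 3 months, 1 of 55 members was called higher in ki and 0 in Wt, while 2.61% of all 18003 genes were called higher in ki and 2.73% in Wt. Without adjustment 14 members in ki (25.5%, against 19.1% of all genes) and 9 in Wt (16.4%, against 24.6%) had p under 0.05, and DESeq2 called 1 in ki and 2 in Wt. The member called in ki was Ndufa12, an accessory subunit of complex I, with 5.08, 6.77 and 13.0 CPM (lowest, median, highest) at 17 months against 3.28, 5.24 and 6.33 CPM at 3 months. The 2 ages overlapped. The log2 fold change of Ndufa12 was 0.63 ± 0.18 (edgeR adjusted p = 0.0387), and its reads can be split with other genes that share its sequence. Without ki 17-month replicate 1 or ki 3-month replicate 4 it was not called (adjusted p = 0.166 and 0.128), nor without a filter, with composition covariates or without libraries of extreme GC trend. In Wt the smallest adjusted p was that of Sdha (0.0575), with 297, 458 and 957 CPM at 17 months against 249, 319 and 419 CPM at 3 months (0.72 ± 0.23).

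The direction was nonetheless shared. In each genotype 52 of 55 log2 fold changes were positive at 17 against 3 months (60.3% of all genes in ki and 53.9% in Wt), with medians of 0.37 in ki and 0.36 in Wt, against 0.06 and 0.03 over all genes. Muscle markers moved with them: 24 of 24 were positive in each genotype, with medians of 0.80 in ki and 0.96 in Wt, although none was called. With scores for tissue content as covariates the members' medians were 0.01 in ki and -0.04 in Wt. TCA cycle genes had medians of 0.53 in ki and 0.55 in Wt with 0 of 18 called.

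Both genotypes together gave the steps between ages. At 9 against 3 months 1 member was higher, Ndufb2 (0.29 ± 0.09, adjusted p = 0.0311), a small accessory subunit of complex I, while 5.49% of all genes were called higher; the members' median was 0.08. Its call was lost without ki 3-month replicate 4 (adjusted p = 0.0543), with a GC correction, without libraries of extreme GC trend and on the length-scaled values. Mitochondrially encoded genes were higher in 5 of 9 cases there, with mt-Nd2 at 0.82 ± 0.25 and mt-Nd4 at 0.76 ± 0.24. Their summed level had medians of 39000 CPM at 3 months and 89100 CPM at 9 months in ki, and of 74400 and 92500 CPM in Wt. The ki 3-month group also had the highest dependence on GC content (mean slope 0.233), and its part in these calls was not tested. At 17 against 9 months 2 members were higher, where 4.3% of all genes were: Ndufa4l2 (0.69 ± 0.19, adjusted p = 0.0264) and Sdha (0.55 ± 0.15, adjusted p = 0.0288). Ndufa4l2 had 1 library far above the rest in each 17-month group, with a highest value of 19.9 CPM against a median of 7.76 CPM in ki and a highest of 12.4 CPM against a median of 5.58 CPM in Wt. Without Wt 17-month replicate 3, 0 members were called at this step, and with 1 other 17-month library left out there were 1 (ki replicate 1) or 3 (ki replicate 2). Ndufa4l2 was also lost with a GC correction and on the length-scaled values, and Sdha with composition covariates. The members' median was 0.30 at this step, and 20 had an unadjusted p under 0.05 (36.4%, against 21.8% of all genes). limma's voom with quality weights called 30 members at 17 against 9 months and 25 at 17 against 3 months in ki, with medians of 0.36 and 0.56. The share of all genes that voom called is not given, so these counts cannot be set against it.

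Part of the members were lower in retinas at 9 than at 3 months when both genotypes were averaged. At 9 against 3 months, both genotypes together, 23 of 54 tested members were called lower and 0 higher, where 16.6% of 17240 genes were called lower and 17.4% higher (Cox6a2 was not tested in retinas). These were 11 genes of complex I, 1 of II, 3 of III, 3 of IV and 5 of V. The changes were small, with a median over all 54 members of -0.09 against 0.00 over all genes. Atp5a1, the alpha subunit of ATP synthase, was lowest in p: in ki it had 470, 496 and 548 CPM (lowest, median, highest) at 9 months against 485, 517 and 560 CPM at 3 months, with overlap, and in Wt 448, 485 and 516 CPM at 9 months against 523, 580 and 604 CPM at 3 months, with no overlap. Its log2 fold change over both genotypes was -0.14 ± 0.03 (adjusted p = 0.000275). The summed length-scaled value of all members was nearly level in ki, at 11100 at 9 months against 11000 at 3 months, and lower in Wt, at 11000 at 9 months against 11400 at 3 months; a difference between the genotypes at this step was not tested. Cox7a2l (-0.15 ± 0.03), Ndufb4 (-0.26 ± 0.06, a gene that shares sequence with others), Ndufb9 (-0.17 ± 0.04) and Ndufa11 (-0.18 ± 0.05) came next. Sdhc (-0.18 ± 0.05) and Uqcrc1 (-0.13 ± 0.04) had the smallest p of complexes II and III. With library totals only 12 members were called, and on the length-scaled values 9 were lower and 2 higher.

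At 17 against 9 months, a step that shares its 9-month libraries with the one before, 3 members were called lower, where 14.3% of all genes were, and the median was -0.01. All 3 belong to complex V: Atp5s (-0.27 ± 0.06, adjusted p = 0.00127), Atp5f1 (-0.11 ± 0.03, adjusted p = 0.00962), a subunit of the peripheral stalk, which with a GC correction was at 0.13 and not called, and Atp5c1 (-0.09 ± 0.03, adjusted p = 0.0293), the gamma subunit of the rotor. On the length-scaled values Atp5s and Atp5c1 were not called, nor was Atp5c1 with a replicate block. Atp5s had 6.95, 8.63 and 9.96 CPM at 17 months against 8.35, 10.8 and 12.0 CPM at 9 months in ki, and 6.32, 9.69 and 10.9 CPM against 9.37, 10.3 and 12.4 CPM in Wt, with overlap in both. The counts of mitochondrially encoded genes ran the other way. None of 9 was called at 9 against 3 months (median 0.09) and all 9 were lower at 17 against 9 months (median -0.41), with mt-Co1 at -0.29 ± 0.06 and mt-Nd1 at -0.41 ± 0.11.

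Over the whole span of 17 against 3 months, 11 of 54 members were lower in ki retinas and 14 in Wt retinas, with 0 higher in either; of all genes, 9.01% were called lower in ki and 7.92% in Wt. The medians were -0.09 in ki and -0.11 in Wt. The counts moved with single 3-month libraries: 5 or 7 were called in ki without ki replicate 5 or 2, and 24 in Wt without Wt replicate 7. With a GC correction 26 were called in Wt. Cox7a2l had the smallest p in both. It ran from 86.8 through 90.2 to 104 CPM in ki retinas of 17 months against 95.7, 103 and 119 CPM at 3 months (log2 fold change -0.21 ± 0.05, adjusted p = 0.00227), and from 89.5 through 94.8 to 114 CPM against 99.5, 115 and 123 CPM in Wt (-0.22 ± 0.05, adjusted p = 0.00117), with overlapping ranges. Atp5c1 (-0.19 ± 0.05 in ki, -0.17 ± 0.05 in Wt), Uqcrc2 (-0.16 ± 0.04 in ki, -0.15 ± 0.04 in Wt), Ndufa9 (-0.18 ± 0.04 in ki, -0.12 ± 0.04 in Wt) and Atp5f1 (-0.18 ± 0.05 in ki, -0.16 ± 0.05 in Wt) were called in each genotype. In Wt the list also held Ndufb11 (-0.20 ± 0.05), Atp5j (-0.17 ± 0.05) and Sdhd (-0.16 ± 0.05). The genotypes were not shown to differ: the change of ki minus Wt over this span passed for 0 members by edgeR or DESeq2 and for 0% of all genes, with 1 member at an unadjusted p under 0.05. In eyecups the same test called 0 members by edgeR or DESeq2, with 0 at an unadjusted p under 0.05.

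In retinas 13 of 20 rod markers were also lower at 9 against 3 months, both genotypes together (median -0.15). Their sum had medians of 71100, 64000 and 64100 CPM in ki and of 77700, 63300 and 69300 CPM in Wt at 3, 9 and 17 months. The rod sums of Wt libraries overlapped between 9 months (60400 to 71700 CPM) and 17 months (62200 to 79100 CPM), and their difference was not tested. The cone marker sum had medians of 1130, 1110 and 1090 CPM in ki and of 1160, 1100 and 1070 CPM in Wt at the 3 ages. With scores for tissue content as covariates 0 members were called at 9 against 3 months, 1 (higher) at 17 against 3 months in Wt, 2 in ki and 13 at 17 against 9 months. TCA cycle genes fell in 8 of 18 cases at 9 against 3 months and rose in 1, with Ogdh at -0.11 ± 0.02, and glycolysis genes fell in 6 of 18 and rose in 2, with Hk1 at -0.14 ± 0.03.

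**Figure D5:**
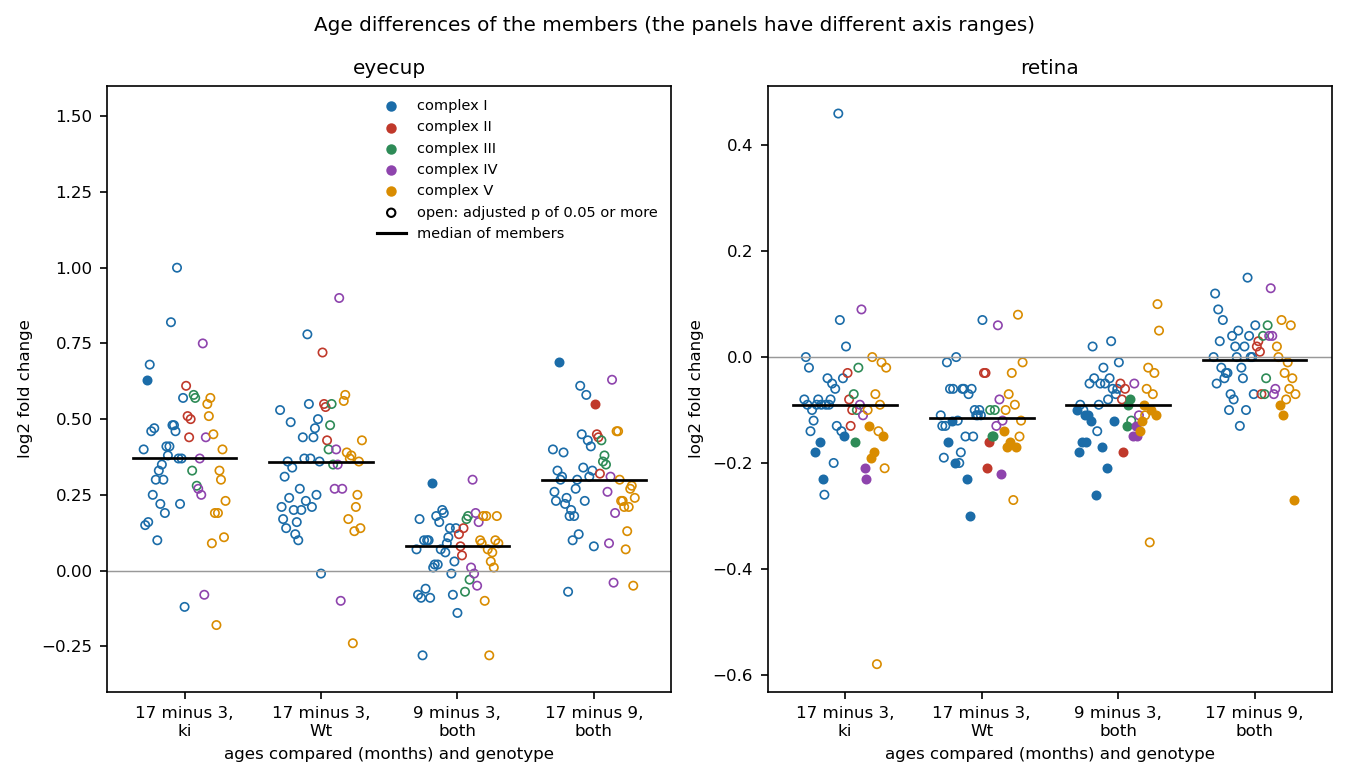
Log2 fold changes of the members between ages in eyecups (left panel) and retinas (right panel, narrower range), coloured by complex; filled points have an adjusted p under 0.05 and black bars are medians. Eyecup medians lie between 0.08 and 0.37, with at most 2 filled points in a comparison, and retina medians between -0.11 and -0.01, with 3 to 23.

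The 2 tissues were compared in this respect in the joint fit. The 17 minus 3 months difference, averaged over genotypes, was more positive in eyecups than in retinas for 25 of 55 members and less positive for 0, where 9.81% and 9.31% of 19210 genes were called in these directions. The median difference was 0.47, against 0.05 over all genes. Sdha (0.69 ± 0.16, adjusted p = 0.0011), the complex I core subunit Ndufs1 (0.86 ± 0.21), the complex III core protein Uqcrc2 (0.68 ± 0.18) and Atp5c1 (0.65 ± 0.17) were among those of smallest p, and Cox7b (0.53 ± 0.19) was the complex IV gene called. TCA cycle genes differed in 15 of 18 cases and mitochondrially encoded genes in 9 of 9, with mt-Nd2 at 1.12 ± 0.28. The ki 3-month eyecups, which enter this difference, had the lowest median of the summed mitochondrially encoded level among eyecup groups (39000 CPM). With the muscle score of the eyecups as a covariate 13 members were called and the median was 0.09.

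Genotype was tested at each age. In eyecups no member was called for ki against Wt at 3, 9 or 17 months by edgeR or DESeq2, where 3.07%, 0.00555% and 0.0611% of all genes were called in either direction; 1, 0 and 2 members had an unadjusted p under 0.05, or at most 3.64%, against 17.1%, 1.38% and 10% of all genes. The medians over members were 0.11, 0.03 and 0.11. Averaged over the ages, 1 member was lower in ki eyecups, where 3.37% of all genes were. It was Atp5s, the coupling factor B gene (chromosome 12, 69724962 to 69744658). Its values at 3, 9 and 17 months were 9.14 ± 2.64, 11.0 ± 1.23 and 9.78 ± 2.05 CPM in ki and 11.4 ± 1.09, 12.2 ± 1.04 and 12.8 ± 2.06 CPM in Wt (SD). The ki mean was below the Wt mean at each age and the ranges overlapped, with 5.04 to 12.0 CPM in ki and 9.80 to 12.9 CPM in Wt at 3 months. Its log2 fold change was -0.27 ± 0.08 (adjusted p = 0.0304), and it was not called with a replicate block or on the length-scaled values.

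Mitochondrially encoded genes were lower in 3 of 9 cases in the same comparison, namely mt-Co3 (-0.91 ± 0.23), mt-Atp6 (-0.69 ± 0.20) and mt-Nd2 (-0.67 ± 0.20). Their summed CPM ranged from 11600 through a median of 39000 to 96300 in ki eyecups of 3 months, against 59200, 74400 and 106000 in Wt. The dependence of expression on GC content was highest in that ki group, with a mean slope of 0.233 against -0.124 to 0.0909 in the other eyecup groups, and with a GC correction 0 members were called for the mean of the ages, Atp5s included.

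In retinas most members had negative log2 fold changes for ki against Wt at 3 and 17 months. At 3 months 50 of 54 members were negative (92.6%, against 50.3% of all genes), with a median of -0.10 against 0.00. Of the members 24 had an unadjusted p under 0.05 (44.4%, against 19.7% of all genes) and 1 was called lower, where 0.87% of all genes were. This was Ndufb11, a complex I subunit of the membrane arm, with 54.0, 59.2 and 66.6 CPM in ki against 65.8, 68.3 and 76.3 CPM in Wt; the groups overlapped slightly (log2 fold change -0.20 ± 0.05, adjusted p = 0.0412). Without ki replicate 5, 0 members were called at 3 months, and without ki replicate 2 or Wt replicate 7 there were 6 or 5. With limma's voom and quality weights 17 were called. The share of all genes called under these settings is not given, so these counts cannot be set against it. The Ndufb11 call was lost with library totals only, without a filter, on the length-scaled values and with composition covariates. At 9 months 0 members were called by edgeR or DESeq2, where 0% of all genes were, with 1 unadjusted p under 0.05 and a median of 0.03. At 17 months edgeR called 0 members, where 0.406% of all genes were called, and DESeq2 called 2; 17 had an unadjusted p under 0.05 (31.5%, against 15.2% of all genes), and the median was -0.09. Rod markers had a median of -0.10 at 3 months and -0.06 at 17 months, with 0 of 20 called at either age.

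Over the mean of the ages 3 members were lower in ki retinas, where 2.69% of all genes were: Uqcrfs1 (-0.08 ± 0.02, adjusted p = 0.0331), Ndufv2 (-0.11 ± 0.03, adjusted p = 0.0352), a core iron-sulfur subunit of complex I, and Ndufb10 (-0.10 ± 0.03, adjusted p = 0.041). Uqcrfs1 averaged 63.9 ± 3.98 CPM in ki and 71.9 ± 3.12 CPM in Wt at 3 months, 63.5 ± 2.57 CPM in ki and 63.7 ± 3.50 CPM in Wt at 9 months, and 60.6 ± 3.12 CPM in ki and 65.0 ± 6.85 CPM in Wt at 17 months. The gap was therefore widest at 3 months and near 0 at 9 months. Without Wt 9-month replicate 6, 0 members were called over the mean of the ages, and none of the 3 calls held with library totals only or without a filter on low counts. With scores for tissue content as covariates 0 members were called. Lens markers were called higher in ki retinas in 9 of 11 cases over the mean of the ages, with single libraries far above the rest: their summed level had medians of 34.0, 39.1 and 32.9 CPM in ki and 33.0, 32.5 and 32.0 CPM in Wt at 3, 9 and 17 months, with highest libraries of 919, 1260 and 172 CPM in ki and 64.7, 80.4 and 36.0 CPM in Wt. Glycolysis genes were lower in 3 of 18, with Gapdh at -0.11 ± 0.03. The ki minus Wt difference was not shown to differ between eyecup and retina for any member (0 called by edgeR or DESeq2, 5 with an unadjusted p under 0.05; 3.23% of all genes were called), while 3 members were called with the muscle score of the eyecups as a covariate.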

How the data were processed

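RNA of neural retinas and posterior eyecups had been made into TruSeq Stranded mRNA libraries from 200 ng of total RNA, per the labels' protocols, and the build is GRCm38.p4 per the submitters' processing notes; the aligner and the counter were not given in the sources used here. Deposited by the authors were estimated counts per gene (37.9% of values are fractional) and a second table whose unit is taken as a score, a length-scaled value that adds up to 1000000 over the protein-coding rows of each library. In each file 1 column of values matched no sample and was not used. Groups came from the titles. The members and all lists were chosen with earlier results of these data known.

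Estimated counts were rounded and tested with edgeR 4.0.16 (R 4.3.3): TMM scaling, filterByExpr, robust quasi-likelihood fits and Benjamini-Hochberg adjustment over all genes at 0.05. Each tissue was fitted with its 6 groups, and differences between tissues in 1 fit of 12 groups. A standard error (SE) is the log2 fold change over the root of F. Printed CPM are scaled by TMM over all libraries. Every member could be counted; members called in a comparison were named when there were at most 8, otherwise those of smallest p, and for other lists the 4 of smallest p; values of 1 member are not reported here by name. Ages in the isoform ratio were compared by exact permutation. No 2 libraries agreed within sampling noise: the closest pair of a group had a chi-square of 2.21 per degree of freedom. GC content was matched for 99.6% of genes, with medians of 50.4% for members and 48.0% for all genes. Alternatives were other scalings, no filter, a replicate block, DESeq2 1.42.0, limma 3.58.1 (voom with quality weights, and log2 of the length-scaled value plus 1), a GC offset, marker scores as covariates and libraries left out. For members called under an alternative, the share of all genes called under the same setting is not given. The test scripts were tested on simulated data. Depth limits precision at low counts, and SEs cover the spread between libraries only.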

Additional observations from a re-analysis of the deposited data

Results flagged for a closer look

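Single libraries lay far from the others of their group in 16 of 312 combinations of a group with a member or complex sum; chance alone marks about 1 in 20 such groups. Several of these values came from the same few libraries. In eyecups, ki 3-month replicate 8 was highest for the complex II sum (1174 length-scaled, next 926), for Sdhb (257 CPM, next 178) and for Sdha (527 CPM, next 389). The ki 3-month replicate 4 was highest for Cox4i2 (6.29 CPM, next 3.73). Ndufa4l2 was highest at 17 months in ki replicate 2 (19.9 CPM, next 9.1) and in Wt replicate 3 (12.4 CPM, next 5.83). Ndufa12 was highest in ki 17-month replicate 1 (13.0 CPM, next 8.12), and Ndufb2 lowest in Wt 9-month replicate 1 (14.9 CPM, next 20.4).

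In retinas, Wt 3-month replicate 7 was lowest for the complex II sum (664 length-scaled, next 708), for Sdha (276 CPM, next 309), for Atp5f1 (115 CPM, next 129) and for the complex I core subunit Ndufv2 (48.3 CPM, next 56.9). The ki 3-month replicate 5, which also stood apart over all genes, was highest for Atp5s (12.4 CPM, next 10.2) and for Ndufb2 (40.2 CPM, next 32.8). The ki 3-month replicate 2 was highest for Uqcrfs1 (72.4 CPM, next 65.6), and Wt 9-month replicate 6 was highest for Ndufa12 (8.06 CPM, next 6.16).

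A difference between groups was marked for the change with age: 25 of 55 members had a 17 minus 3 months difference that was more positive in eyecups than in retinas by the interaction in the joint edgeR fit, where 9.81% of all genes did.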

How the results depend on the processing

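Of 2101 repeats of single called members under other settings (1 member left out), 1847 kept direction and call, 233 lost the call and 21 changed sign. Counts of members called moved by over 1.5 times as follows, always against the values in the report, and the cause was not tested. DESeq2 called 2 for eyecup 17 minus 3 months in Wt, 3 and 2 for retina ki minus Wt at 3 and 17 months, and 5 for retina 17 minus 9 months. voom called 1 and 25 for eyecup 17 minus 3 months in Wt and ki, 2 for eyecup 9 minus 3, 30 for eyecup 17 minus 9, 17 and 6 for retina ki minus Wt at 3 months and over the mean of ages, 32 for retina 17 minus 3 months in Wt, 6 for retina 17 minus 9, and 47 for the age difference between tissues. RLE size factors called 1 for eyecup 17 minus 3 months in Wt. With library totals only there were 1 for that comparison, 0 for retina ki minus Wt at 3 months and over the mean of ages, 6 and 9 for retina 17 minus 3 months in ki and Wt, and 12 for retina 9 minus 3; Atp5g1 (-0.06) and Atp5s (-0.17) changed sign between tissues. Without a filter there were 0 for eyecup 17 minus 3 months in ki, 0 and 0 for the 2 retina genotype comparisons and 6 for retina 17 minus 3 months in ki.

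On the length-scaled values limma called 0 for eyecup ki minus Wt over the mean of ages, 2 for eyecup 17 minus 3 months in Wt, 0 for 9 minus 3, 1 for 17 minus 9, 0 and 1 for retina ki minus Wt at 3 and 17 months, 7 for retina 17 minus 3 months in ki, 11 for retina 9 minus 3 and 14 for retina 17 minus 9. Signs changed there between tissues for Atp5g1 (-0.38), Sdha (-0.40), Ndufs1 (-0.04), Ndufa10 (-0.27), Ndufv1 (-0.09) and Atp5s (-0.53), against the muscle score for Ndufb2 (-0.03) and Atp5s (-0.04), and at retina 9 minus 3 months for Atp5o (0.00). With a GC correction there were 0 for eyecup ki minus Wt over the mean of ages, 1 for eyecup 17 minus 3 months in Wt, 0 for 9 minus 3, 1 for 17 minus 9, 2 and 7 for retina ki minus Wt at 3 months and over the mean of ages, 26 for retina 17 minus 3 months in Wt and 7 for 17 minus 9, where Atp5f1 changed sign (0.13).

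Composition scores as covariates gave 1 for eyecup ki minus Wt at 3 months, 0 for eyecup 17 minus 3 months in ki, 5 for 9 minus 3 and 1 for 17 minus 9. In retinas they gave 0 for ki minus Wt at 3 months and over the mean of ages, 1 and 2 for 17 minus 3 months in Wt and ki, 0 for 9 minus 3 and 13 for 17 minus 9. At retina 9 minus 3 months Sdhc (0.07), Ndufa10 (0.05), Cox5b (0.05), Atp5o (0.03), Ndufs8 (0.02), Atp5b (0.01), Uqcrc1 (0.01), Atp5h (0.01) and Uqcrfs1 (0.00) changed sign. With the muscle score in the joint fit, an alternative chosen after seeing the data, 3 members differed between tissues in ki minus Wt and 13 in age.

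Without the retina libraries that stood apart there were 4 and 1 for ki minus Wt at 3 months and over the mean of ages, and 7 and 24 for 17 minus 3 months in ki and Wt. Without libraries of extreme GC trend, also chosen after seeing the data, these were 4, 1, 7 and 30, with 5 for retina 17 minus 9 and 0 for eyecup 17 minus 3 months in ki and for eyecup 9 minus 3. Leaving out 1 library that lay far from its group, again chosen after seeing the data, gave 0 to 3 for eyecup 17 minus 3 months in ki and for 17 minus 9, 0 to 1 for 9 minus 3, 0 to 6 and 0 to 4 for retina ki minus Wt at 3 months and over the mean of ages, 24 for retina 17 minus 3 months in Wt, 5 to 7 in ki, 21 to 29 for 9 minus 3 and 5 for 17 minus 9.

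The labels do not say what a replicate number marks. In no pair of groups did every same-numbered pair of libraries correlate above 0.1: those of ki and Wt eyecups ran from -0.28 to -0.01 at 3 months and from -0.42 to 0.71 at 9 months, so the numbers were not taken as pairs. Eyecups and retinas of the same number had median correlations of 0.15, 0.02 and -0.02 in ki and 0.02, 0.05 and 0.06 in Wt at 3, 9 and 17 months. Whether an eyecup and a retina came from 1 mouse is not stated, and the joint fit took them as independent. A fit with the number as a replicate block called 0 for eyecup ki minus Wt over the mean of ages and 2 for retina ki minus Wt at 3 months, and moved no other count by over 1.5 times. In the ratio of Cox4i2 to Cox4i1, of which no difference passed, the block changed the sign of ki minus Wt at 9 months (0.10) and of 17 minus 3 months in Wt (-0.06) and ki (-0.18), and a difference of medians that of the first 2 (0.12 and -0.10). Composition scores were not run in the joint fit, and the ratio was not run with libraries left out.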

Other observations

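A few genes of mitochondrial regulation outside the 55 members were called with age in eyecups, at ages where the skeletal muscle markers had medians of 0.80 in ki and 0.96 in Wt (none called); the part of muscle in these values was not tested. Ppargc1a, the coactivator of mitochondrial biogenesis, was higher at 17 than at 3 months in ki (log2 fold change 0.98 ± 0.24, SE, edgeR adjusted p = 0.0143) and in Wt (1.04 ± 0.26, adjusted p = 0.0153), and was the 1 of 18 regulators called in each genotype. It was already higher at 9 than at 3 months over both genotypes (0.66 ± 0.17, adjusted p = 0.0119). The age difference was more positive in eyecups than in retinas for Ppargc1a (0.99 ± 0.18), for the nuclear receptor gene Esrrg (1.20 ± 0.30) and for Tfam and Tfb2m, which act in transcription of the mitochondrial genome (0.38 ± 0.09 and 0.54 ± 0.11). Among assembly factors, 3 of 40 were higher in ki and 2 in Wt eyecups at 17 than at 3 months. Of all genes, 2.61% were called higher in ki and 2.73% in Wt. Lrpprc, which stabilises mitochondrial messages, was called in both (0.51 ± 0.14 in ki, 0.53 ± 0.15 in Wt).

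Ndufaf4, an assembly factor of complex I, was lower in ki than in Wt eyecups over the mean of the ages (-0.36 ± 0.09, adjusted p = 0.0165) and at 3 months (-0.58 ± 0.17, adjusted p = 0.0423). In ki retinas the regulators Pprc1 (0.18 ± 0.03, adjusted p = 0.00206) and Twnk, the mitochondrial helicase gene (0.15 ± 0.03, adjusted p = 0.00411), were higher than in Wt over the mean of the ages. Pprc1 was also higher in ki eyecups (0.17 ± 0.05, adjusted p = 0.0303). The ki eyecups of 3 months, which enter these eyecup comparisons, had the highest dependence on GC content (mean slope 0.233). Values of Ndufaf4 and Pprc1 with a GC correction are not given here. In retinas the assembly factors were split at 9 against 3 months, with 9 lower and 4 higher of 40, among them Coa7 (-0.27 ± 0.04) and Foxred1 (0.15 ± 0.04). Of all genes, 16.6% were called lower and 17.4% higher at that step.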
